A study of Mus musculus with 6 samples.

Results

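The miR-130 and miR-301 family was followed in small RNA libraries of neural stem cells, which divide to give the neurons and glia of the hippocampus. Its members were taken by name, as every row whose name begins with mmu-miR-130a-, mmu-miR-130b-, mmu-miR-301a- or mmu-miR-301b-. These came to 8 of the 1522 mature miRNAs measured, namely mmu-miR-130a-3p, mmu-miR-130a-5p, mmu-miR-130b-3p, mmu-miR-130b-5p, mmu-miR-301a-3p, mmu-miR-301a-5p, mmu-miR-301b-3p and mmu-miR-301b-5p, the 3p and the 5p strand of 4 precursors. The species prefix is left out below.

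Donors of the cells were male C57BL/6J pups, taken at postnatal day 3. In the GDE group (gestational dexamethasone exposure, IUGR in the library titles), dams had received intraperitoneal dexamethasone, a synthetic glucocorticoid, at 1 mg/kg each day from E14.5 to E18.5 (days of gestation). In the Control group (Normal in the titles) the dams had received the same volume of saline on the same days. Each group had 3 libraries, which the design text places in independent litters; the number of pups behind a library is not stated. Levels are in RPM, tags relative to all tags of the library.

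A microRNA precursor is a hairpin whose 2 arms, 5p and 3p, each can give a mature strand. One strand, the guide, is usually loaded into an Argonaute protein and lowers mRNAs that pair with its seed, bases 2 to 8, while the other, the passenger, is mostly degraded. The 3p strands are the usual guides of this family, and because they share a seed they are thought to act on overlapping targets. miR-130a is best known from blood vessels, where it promotes the growth of human endothelial cells. miR-130b and miR-301a are known for promoting the growth of human tumour cells.

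Mir130b and Mir301b form a cluster on chromosome 16 (GRCm38), at 17124061 to 17124142 and 17124400 to 17124496 on the minus strand, 257 bases apart. Both lie in introns of the protein-coding gene 2610318N02Rik on the same strand. Mir301, the gene of miR-301a, lies alone on chromosome 11, at 87113004 to 87113089 on the plus strand, in an intron of Ska2. Ska2 encodes a protein of the spindle and kinetochore that was also reported to bind the glucocorticoid receptor in human cells. Mir130a lies on chromosome 2, at 84741115 to 84741178 on the minus strand, in no annotated gene. The nearest annotated genes are Gm19426, at 991 bases, and Ypel4, at 2460 bases.

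The RefSeq table (GRCm38.p6) held the mature sequence of 7 of the 8 members. The strands are printed because their seeds divide the family and because similar strands could exchange tags. Capitals mark bases 2 to 8, and the sequences read 5′ to 3′.
miR-130a-3p: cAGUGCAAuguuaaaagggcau
miR-130b-3p: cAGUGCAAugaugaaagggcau
miR-301a-3p: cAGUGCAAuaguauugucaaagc
miR-130a-5p: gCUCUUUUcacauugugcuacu
miR-130b-5p: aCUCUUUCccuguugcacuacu
miR-301a-5p: gCUCUGACuuuauugcacuacu
miR-301b-5p: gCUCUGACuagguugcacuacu

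The 3p strands shown share the seed AGUGCAA. miR-130a-3p and miR-130b-3p are identical at 20 of 22 positions and differ by U11A and A13G (the base of miR-130a-3p first, counted from the 5′ end). miR-301a-3p shared 12 of 22 positions with miR-130a-3p and 11 of 22 with miR-130b-3p. Among the 5p strands, those of miR-301a and miR-301b share the seed CUCUGAC and differ at 3 of 22 positions, while miR-130a-5p (CUCUUUU) and miR-130b-5p (CUCUUUC) each have a seed of their own. miR-301b-3p could not be compared with the other strands, as its sequence was not held. How tags that match several members were assigned is not stated in the sources used here. Whether miR-301b-3p took tags from the more abundant miR-301a-3p was not tested.

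With the values read as RPM, the libraries rested on 11751322 to 12384958 tags, of which 24.1% to 27.8% were in the table. All 8 members passed the filter of at least 1 RPM in 3 libraries, as did 649 miRNAs in all, and no member had exactly the values of another row. Control replicate 1 stood apart. It was the highest library for 41.4% of the tested miRNAs and for 6 of the 8 members. The neural progenitor list (miR-9-5p, miR-9-3p, miR-92b-3p and miR-17-5p) summed to 18217 to 19443 RPM in GDE and to 18229 to 20211 RPM in Control. No single miRNA defines neural stem cells, and neuronal miRNAs (miR-124-3p, miR-128-3p, miR-138-5p and miR-129-5p) were also present, at sums of 1863 to 2308 RPM in GDE and 2040.1 to 2097 RPM in Control. The choroid plexus and ependyma list (4 of 4 miRNAs measured) summed to 758 to 1310.4 RPM in GDE and 506 to 831 RPM in Control. The microglia and leukocyte list (5 of 5 miRNAs measured) summed to 409 to 573 RPM in GDE and 223 to 370 RPM in Control. The erythroid list (3 of 3) summed to 73.8 to 93.5 RPM in GDE and 34.98 to 69.0 RPM in Control. The endothelial and mural list (6 of 6) summed to 383 to 606 RPM in GDE and 354 to 434 RPM in Control. No marker of these lists was at 0 in all libraries. In such bulk libraries fewer cells of a type and less RNA per cell cannot be told apart.

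The family was carried by the 3p strands of the single precursors, miR-130a and miR-301a. The 3p strands of the cluster, miR-130b and miR-301b, were far rarer, while the 5p strand of miR-130b was the third most abundant member. No member passed the test between the groups. Within the libraries, the share of the cluster among the 3p strands was lower in every GDE library than in every Control library. The closest of these, GDE replicate 1 and Control replicate 3, were at 2.25% and 2.35%, and counting error was not carried into the shares. The groups likewise did not overlap for 14.6% of the tested miRNAs by level and for 11.0% of the arm ratios, 5p over 3p strand of a precursor. No such percentage was computed for shares of, or ratios between, different miRNAs. The share and the ratios between 3p strands rest on the same strands and are not separate results. The ratios between the 3p strands gave an exact permutation p of 0.1 at the lowest, the smallest that 3 against 3 libraries allow (0.2 adjusted).

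miR-130a-3p was at 812, 736 and 578 RPM in GDE and at 900.3, 622 and 575 RPM in Control. The groups covered the same range, with means of 709 ± 119 RPM in GDE and 699 ± 176 RPM in Control (mean ± SD, n = 3 each, as throughout). Its log2 fold (GDE minus Control, from log2 values of RPM + 1) was 0.034 with a 95% interval of -0.45 to 0.52 (limma, adjusted p = 0.989). By its mean log2 level it ranked 58 among the 649 tested miRNAs.

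miR-301a-3p was at 485, 718 and 664 RPM in GDE and at 641, 474 and 426 RPM in Control. GDE replicates 2 and 3 lay above all Control libraries and GDE replicate 1 lay between them. The means were 622 ± 122 RPM in GDE and 514 ± 113 RPM in Control, and the log2 fold was 0.28 (95% interval -0.22 to 0.78; limma, adjusted p = 0.708).

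miR-130b-3p, a 3p strand of the cluster, was at 20.8, 12.6 and 8.82 RPM in GDE and at 26.2, 16.3 and 15.7 RPM in Control. The groups overlapped through GDE replicate 1 alone, which lay between Control replicates 1 and 2. The means were 14.1 ± 6.11 RPM in GDE and 19.4 ± 5.87 RPM in Control, with a log2 fold of -0.48 (95% interval -1.26 to 0.31; limma, adjusted p = 0.671). miR-301b-3p was at 9.02, 8.97 and 6.60 RPM in GDE and at 16.5, 10.8 and 8.34 RPM in Control. Here Control replicate 3 lay below GDE replicates 1 and 2, and the other two Control libraries lay above all GDE libraries. The log2 fold was -0.45 (95% interval -1.09 to 0.19; limma, adjusted p = 0.626).

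**Figure D1:**
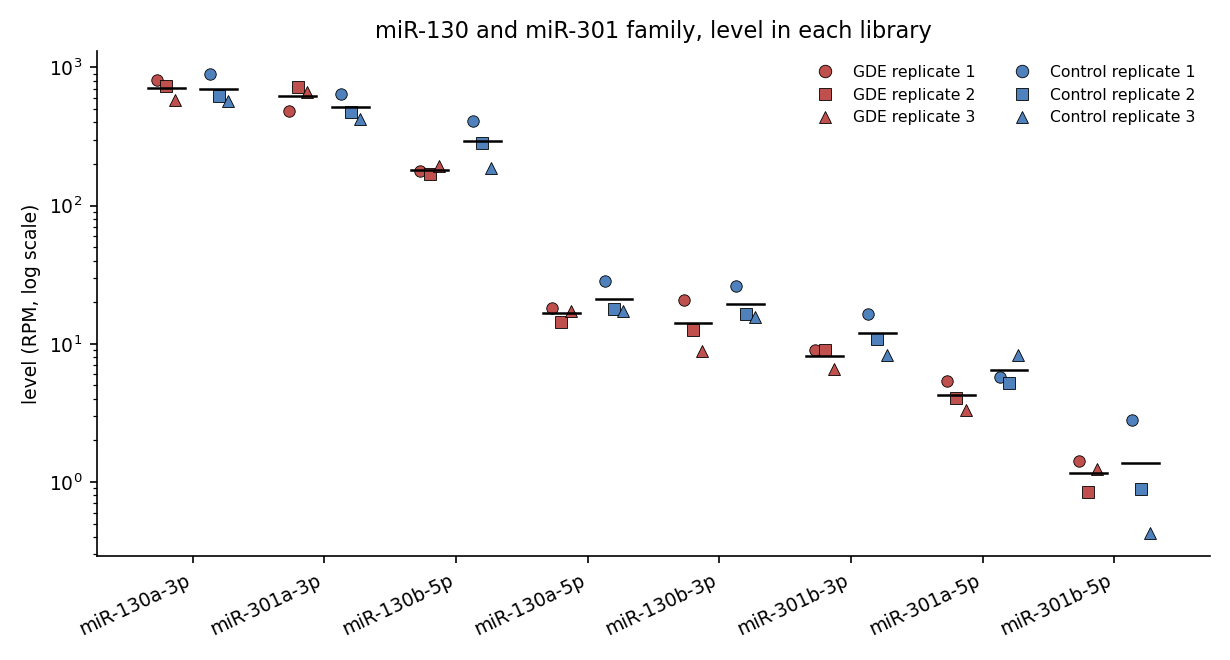
Level of each family member in RPM on a log axis, with 1 point per library (GDE in red, Control in blue, replicate by symbol) and the group mean as a bar. The 3p strands of miR-130a and miR-301a lie between 426 and 900.3 RPM in all libraries, the 3p strands of miR-130b and miR-301b between 6.60 and 26.2 RPM, and the groups overlap for every member.

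Among the 5p strands, miR-130b-5p was the most abundant and gave the lowest p of the family. It was at 177, 170.5 and 194 RPM in GDE and at 412, 285 and 186 RPM in Control. The GDE libraries lay close together, and Control replicate 3 lay among them. The means were 180.4 ± 12.2 RPM in GDE and 294 ± 113 RPM in Control, with a log2 fold of -0.63 (SE 0.29, 95% interval -1.29 to 0.03). It did not pass the threshold (limma, adjusted p = 0.561, 0.383 to 0.822 over the alternatives), and the exact two-sided permutation p was 0.2, where 3 against 3 libraries allow no p below 0.1. The log2 fold was -0.35 without Control replicate 1 and -0.92 without Control replicate 3.

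miR-130a-5p was at 18.3, 14.47 and 17.2 RPM in GDE and at 28.4, 17.8 and 17.4 RPM in Control. Control replicate 1 was far above the rest, and the log2 fold was -0.30 with it and -0.083 without it (limma with all libraries, adjusted p = 0.723). miR-301a-5p was at 5.34, 4.06 and 3.30 RPM in GDE and at 5.73, 5.25 and 8.34 RPM in Control. The groups overlapped by a single pair, as GDE replicate 1 lay just above Control replicate 2, and the log2 fold was -0.50 (95% interval -1.07 to 0.06; limma, adjusted p = 0.567).

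miR-301b-5p rested on the fewest tags of the family. It was at 1.42, 0.846 and 1.24 RPM in GDE and at 2.83, 0.888 and 0.425 RPM in Control, from 42 tags in GDE and 50 tags in Control. The lowest value, in Control replicate 3, rested on 5 tags and had a 95% exact Poisson interval of 0.138 to 0.993 RPM, which covers counting error only. The log2 fold was -0.014 (95% interval -0.85 to 0.82; limma, adjusted p = 0.995). The interval of Control replicate 1, at 1.96 to 3.95 RPM, did not meet that of Control replicate 3.

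Across all 649 miRNAs, limma called 0.308% (2 miRNAs) at an adjusted p under 0.05 and had 8.63% at an unadjusted p under 0.05. Of the 8 members it called 0, and 0 had an unadjusted p under 0.05. With edgeR on the recovered tags, where 0.308% of the miRNAs were called, 0 members were called and 1, miR-130b-5p, had an unadjusted p under 0.05. DESeq2 called 0.770% of the miRNAs and 0 members, again with 1 member at an unadjusted p under 0.05. The groups overlapped for all 8 members, against 14.6% of the tested miRNAs whose groups did not. Log2 folds were negative for 6 members, with a median of -0.38 over the family, while 61.2% of all tested miRNAs had a negative log2 fold and their median was -0.067. All 4 strands of the cluster had a negative log2 fold (median -0.46), and those of miR-130a and miR-301a were 2 positive and 2 negative (median -0.13). The sign for miR-301b-5p turned under other settings (0.11 with a pseudocount of 0.1), so that 3 of the 4 cluster strands were negative under all of them. The markers of other cells had median log2 folds of 1.28 (microglia and leukocyte, 5 tested), 0.83 (choroid plexus and ependyma, 4 tested), 0.52 (erythroid, 2 tested) and 0.33 (endothelial and mural, 6 tested). limma called 0 of them, but 3, 2, 1 and 1 in that order had an unadjusted p under 0.05, against 8.63% of all tested miRNAs. The log2 folds of miR-155-5p (-0.25, microglia and leukocyte) and miR-34b-5p (-0.066, choroid plexus and ependyma) were negative. The part of these markers in the log2 folds of the family was not tested.

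**Figure D2:**
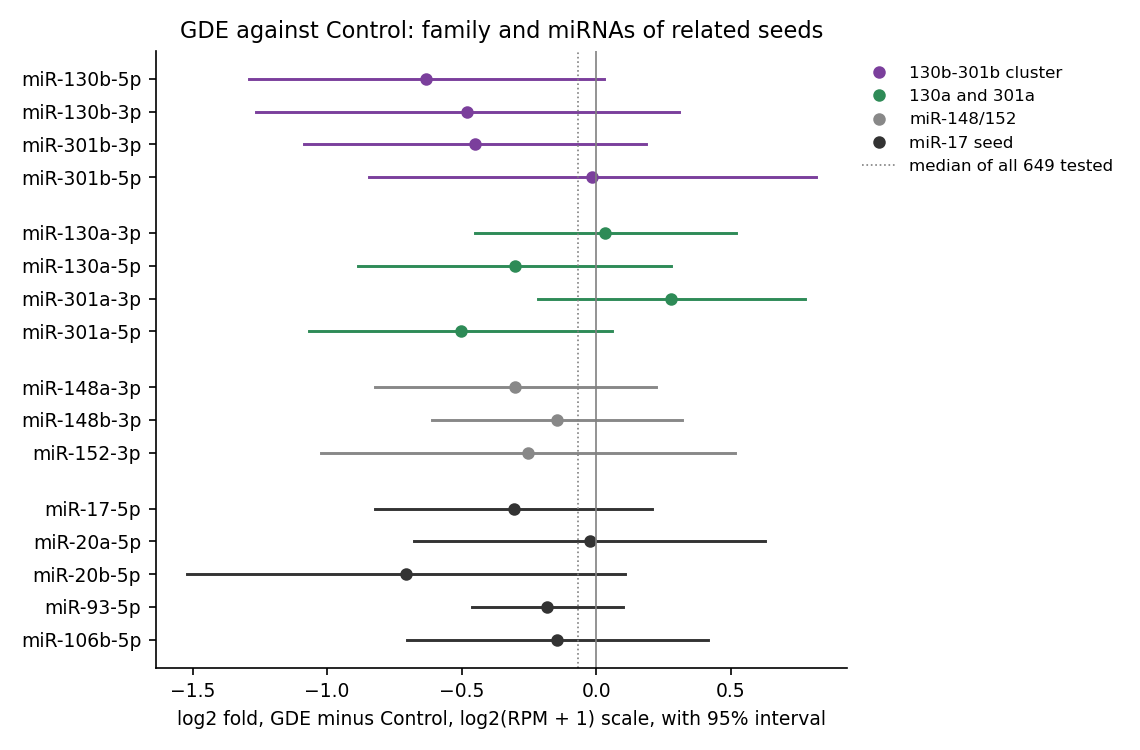
Log2 fold, GDE minus Control, computed from RPM + 1 (x axis) for the 8 family members and for tested miRNAs of related seeds (rows). Points are limma estimates, lines their 95% intervals, and the dotted line the median of all 649 tested miRNAs; every interval drawn reaches across 0, and miR-130b-5p at -0.63 lies farthest from 0 within the family.

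The arms of the 4 precursors were then compared, as both are cut from the same hairpin. For miR-130b the strand usually taken as the passenger was the abundant one. Its 5p strand made up 89.5%, 93.1% and 95.7% of the precursor's RPM in GDE and 94.0%, 94.6% and 92.2% in Control. In every library there was 8.50 to 22.0 times as much 5p as 3p strand. The other 3 precursors had the 3p strand on top in all libraries. For miR-301b the 5p share was 12.7% ± 3.68 in GDE and 9.01% ± 5.03 in Control, for miR-130a it was 2.34% ± 0.490 in GDE and 2.93% ± 0.137 in Control, and for miR-301a it was 0.715% ± 0.326 in GDE and 1.30% ± 0.546 in Control. So the neighbours of the cluster, 257 bases apart, differed in which arm dominated.

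A dominant 5p arm was common in the table. Of the 155 precursors with both arms past the filter, 98, or 63.2%, had more 5p than 3p strand, and by the mean log2 ratio miR-130b ranked 45 from the 5p end. miR-301b ranked 119, miR-130a ranked 141 and miR-301a ranked 149. Arm ratios between the groups gave no call. limma called 0 of the 155 precursors at an adjusted p under 0.05 (0%), 9 had an unadjusted p under 0.05, and none of these were of the family. The log2 arm ratio, 5p over 3p, differed between GDE and Control by -0.15 for miR-130b (95% interval -0.99 to 0.69; limma, adjusted p = 0.950), by 0.44 for miR-301b (-0.16 to 1.03; adjusted p = 0.740), by -0.34 for miR-130a (-0.84 to 0.16; adjusted p = 0.761) and by -0.78 for miR-301a (-1.65 to 0.09; adjusted p = 0.674). For miR-130b the sign turned without GDE replicate 1, to 0.17.

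**Figure D3:**
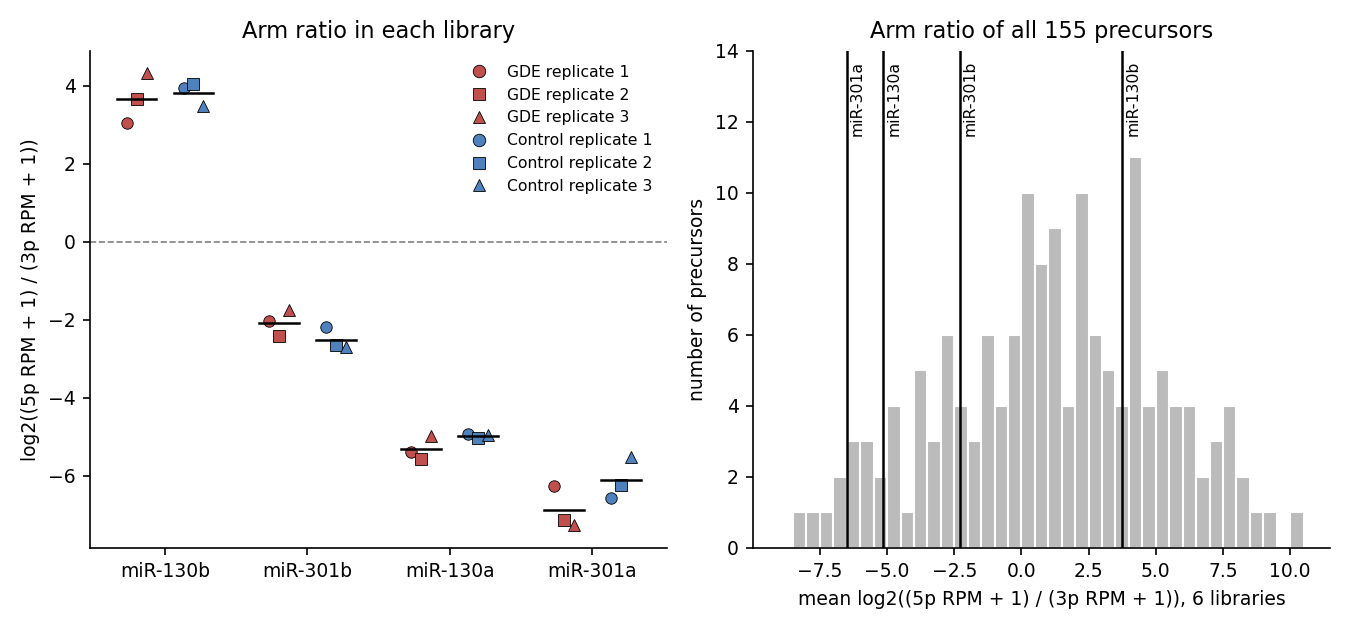
Left, 5p over 3p strand as a log2 ratio in each library for the 4 precursors, with group means as bars; right, the mean ratio over 6 libraries of all 155 precursors as a histogram, with the 4 precursors marked. miR-130b lies above 0 in all libraries, at 89.5% to 95.7% 5p strand, and the other 3 lie below 0.

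The order of the members by level was tested within the libraries, over both groups, with exact two-sided sign-flip permutation tests of all 28 pairs (6 libraries, smallest possible p = 0.03125). From high to low the order was miR-130a-3p, miR-301a-3p, miR-130b-5p, miR-130a-5p, miR-130b-3p, miR-301b-3p, miR-301a-5p and miR-301b-5p. It held in every library for 25 pairs (exact permutation, Benjamini-Hochberg adjusted p = 0.035 for each). The other 3 pairs were neighbours in the order. miR-130a-3p exceeded miR-301a-3p by 0.32 ± 0.34 on the log2 scale and in 5 of 6 libraries (exact permutation, adjusted p = 0.0972). miR-130a-5p and miR-130b-3p were 0.21 ± 0.35 apart (exact permutation, adjusted p = 0.156), and miR-301b-3p and miR-301a-5p were 0.79 ± 0.46 apart (exact permutation, adjusted p = 0.0673). In this order miR-130a-3p was 5.36 ± 0.36 log2 units above miR-130b-3p, from which it differs at 2 positions, and miR-301a-3p was 5.71 ± 0.50 above miR-301b-3p. An exchange of tags within these pairs was not tested. An order in RPM is one of sequenced tags and may differ from that of molecules in the cell.

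The cluster was set against miR-130a and miR-301a by the ratios of the 3p strands within each library, taken from RPM + 1. The log2 ratio of miR-130b-3p over miR-130a-3p was -5.22, -5.76 and -5.88 in GDE and -5.05, -5.17 and -5.10 in Control. The log2 ratio of miR-301b-3p over miR-301a-3p was -5.60, -6.17 and -6.45 in GDE and -5.19, -5.33 and -5.52 in Control. In both, all GDE libraries lay below all Control libraries, and GDE replicate 1 lay nearest to them. The difference between GDE and Control was -0.51 for the first ratio and -0.73 for the second (exact two-sided permutation p = 0.1 for each, the smallest that 3 against 3 libraries allow, and 0.2 adjusted over the 4 ratios tested). With a pseudocount of 10 in place of 1 they were -0.33 and -0.53, and with none, when a ratio does not depend on the scaling, they were -0.55 and -0.77 (an alternative chosen after seeing the data). The log2 folds were -0.48 for miR-130b-3p and 0.034 for miR-130a-3p, and -0.45 for miR-301b-3p and 0.28 for miR-301a-3p. The difference of -0.73 thus also holds the higher mean of miR-301a-3p in GDE. With 3 against 3 libraries this permutation test could not pass a threshold of 0.05, and no other test of these ratios was run.

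The other two ratios overlapped between the groups. miR-130b-3p over miR-301b-3p, both of the cluster, had a mean log2 ratio of 0.65 ± 0.41 in GDE and 0.67 ± 0.15 in Control (exact permutation p = 1.0, n = 3 each). miR-130a-3p over miR-301a-3p was at 0.74, 0.036 and -0.20 in GDE and at 0.49, 0.39 and 0.43 in Control (exact permutation p = 0.4). The Control libraries lay within a narrow band in this ratio, and the GDE libraries lay on both sides of it.

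As shares of all 4 of the family's 3p strands, the cluster gave 2.25%, 1.46% and 1.23% in GDE and 2.70%, 2.42% and 2.35% in Control. The sum of these strands was 1354 ± 111 RPM in GDE and 1244 ± 298 RPM in Control. Of this sum miR-130a-3p took 52.4% ± 7.90 in GDE and 56.1% ± 0.713 in Control, and miR-301a-3p took 46.0% ± 8.43 in GDE and 41.4% ± 0.865 in Control. In GDE replicate 3 miR-301a-3p held the larger share, at 52.8% against 46.0% for miR-130a-3p. The shares of both strands varied more among GDE than among Control libraries; this difference in spread was not tested.

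**Figure D4:**
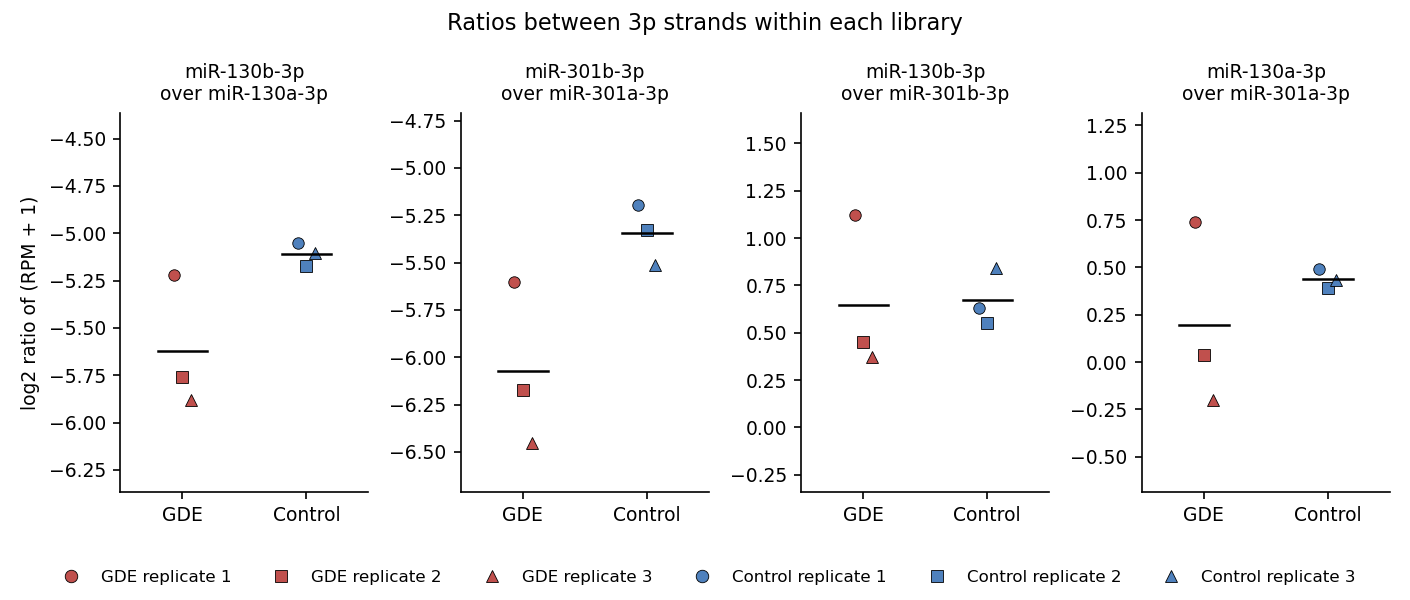
Log2 ratios of (RPM + 1) between 3p strands in each library (y axis, each panel spans 2 log2 units), GDE left of Control, with group means as bars. In the first 2 panels, which set the cluster against miR-130a-3p and miR-301a-3p, every GDE library lies below every Control library; in the last 2 panels the groups overlap.

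The members also differed in how they varied over the 6 libraries. Likeness was measured as the root-mean-square difference of the centred log2 values, as a description only. All miRNAs of a library share its depth and composition, which differed between the libraries, so the likeness values are not free of them. The closest pair of the family was miR-130a-5p and miR-301b-3p, from different chromosomes, at 0.21 apart, and 14.7% of the 641 tested miRNAs outside the family lay closer to miR-130a-5p. miR-130b-5p was 0.22 from miR-301b-3p of the neighbouring hairpin (2.03% of the outside miRNAs closer to miR-130b-5p) and 0.25 from miR-130a-5p of another chromosome (4.52% closer). Pairs within the cluster were thus not all close. miR-130b-3p was 0.25 from miR-301b-3p (3.59% closer to miR-130b-3p) but 0.44 from miR-301b-5p (42.4%), and the strands of the miR-130b hairpin were 0.42 apart (33.4% closer to miR-130b-5p). Of the 3p strands, miR-130a-3p and miR-130b-3p were 0.33 apart (55.5% closer to miR-130a-3p) and miR-301a-3p and miR-301b-3p 0.45 apart (65.8% closer to miR-301a-3p). The strands of miR-301a itself were 0.59 apart (85.5% closer to miR-301a-3p).

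Outside the family, the miRNA nearest to miR-130b-5p was miR-676-3p (0.11 apart, against a median of 0.48 over the 641), followed by miR-574-5p and miR-674-5p. miR-676-3p was at 208, 183 and 178 RPM in GDE and at 452, 321 and 209 RPM in Control. It thus had Control replicates 1 and 2 on top, as miR-130b-5p did. miR-674-5p was also among the nearest to miR-301b-3p, with miR-18a-3p (0.12 apart each). The nearest to miR-130a-3p was miR-484 (0.07), to miR-301a-3p miR-99a-3p (0.07), to miR-130a-5p miR-203-3p (0.07) and to miR-130b-3p miR-324-3p (0.16). Those nearest to the rarest members were miR-337-5p for miR-301a-5p (0.13) and miR-208b-3p for miR-301b-5p (0.14).

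Related miRNAs were read from lists chosen by seed. Of the miRNAs outside the family with the seed AGUGCAA in RefSeq (miR-130c, miR-721, miR-6341 and miR-6389), and of miR-454-3p, none was found by name among the 1522 mature miRNAs measured. miR-148a-3p, miR-148b-3p and miR-152-3p, of which miR-148a and miR-152 target the DNA methyltransferase DNMT1 in human cells, carry the AGUGCA of the family seed 1 base further along, at position 3 instead of 2.
miR-148a-3p: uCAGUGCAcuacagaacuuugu
miR-148b-3p: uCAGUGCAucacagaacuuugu
miR-152-3p: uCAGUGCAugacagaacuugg
All 3 log2 folds were below 0, with a median of -0.25, and limma called 0 of them, with 0 at an unadjusted p under 0.05. miR-148a-3p was at 45.1, 43.1 and 30.7 RPM in GDE and at 50.9, 48.2 and 46.0 RPM in Control, so that its groups did not overlap (limma, adjusted p = 0.702). Of the miR-17 seed list, whose members promote proliferation, 5 of 6 passed the filter. limma called 0 of these 5, with 0 at an unadjusted p under 0.05, and all 5 log2 folds were negative with a median of -0.18. Its most abundant member, miR-93-5p, was at 3194, 3200.0 and 2766 RPM in GDE and at 4026, 3417 and 2997 RPM in Control, again with Control replicate 1 on top (limma, adjusted p = 0.643).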

How the data were processed

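Total RNA was extracted in TRIzol and turned into libraries with MGI's MGIEasy Small RNA Library Prep Kit, per the labels' protocols. Bowtie2 and mm10 stand in the submitters' processing notes; versions, trimming and the assignment of multiply matching tags are not stated in the sources used here. The table deposited by the authors names its columns expression only, and its values were taken as RPM because of their steps. Low values were whole multiples of 1 step per library (0.0807 to 0.0851 RPM), and 100% of nonzero values gave whole tags within a tolerance of 0.1 tags. That tags were divided by all tags of the library was assumed, and the depths rest on this. A count of 0 allows up to 3 tags, 0.242 to 0.255 RPM. As no molecular identifiers are known, counting intervals cover counting error only.

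Groups and replicate numbers came from the titles. limma 3.58.1 (R 4.3.3) with a trend was fitted to log2(RPM + 1), which understates changes of low miRNAs, over miRNAs of at least 1 RPM in 3 libraries, with two-sided tests and a Benjamini-Hochberg threshold of 0.05. Arm ratios were fitted over 155 precursors. Alternatives were edgeR 4.0.16 and DESeq2 1.42.0 on recovered tags, other pseudocounts, filters and scalings, a replicate block, and fits without each library. Scripts were tested on simulated data. Replicates differed by more than sampling noise (chi-square per degree of freedom 50.1 to 185.8). All family rows were named; lists and members were chosen with earlier results of these data known. Loci are from GENCODE M21 (GRCm38, called mm10), and Python 3.11.15 with scipy 1.17.1 was used.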

Additional observations from a re-analysis of the deposited data

How the results depend on the processing

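Over 117 refits of single members no adjusted p passed 0.05 (lowest 0.383). limma's 2 calls over all miRNAs became 1 with at least 10 RPM in 3 libraries, where miR-301b-3p, miR-301a-5p and miR-301b-5p were not tested, and 5 with DESeq2; without each library in turn they were 2 to 3. The direction turned for the smallest differences, and the cause was not tested. miR-301b-5p had log2 folds of 0.11 with a pseudocount of 0.1, 0.12 rescaled to the table's sum and 0.054 with TMM factors, and -0.32 to 0.39 without each library in turn. In the same leave-one-out fits, miR-130a-3p ranged over -0.093 to 0.23, the arm ratio of miR-130b over -0.48 to 0.17 and miR-130b-3p over miR-301b-3p over -0.27 to 0.11. The ratios of miR-130b-3p over miR-130a-3p and of miR-301b-3p over miR-301a-3p stayed negative in all 11 alternatives of each (-0.71 to -0.33 and -0.97 to -0.53), 3 of them, the scalings and no pseudocount, chosen after seeing the data. As the groups did not overlap in these ratios, leaving out a library could not turn their sign. The scalings could move them only through the pseudocount, so the constant sign is little added evidence. The count of 25 ordered pairs became 0 without any one library, since 5 libraries allow no p below 0.0625. With a replicate block miR-130b-5p had a log2 fold of -0.63 (limma, adjusted p = 0.573) and limma again called 2 miRNAs; same-numbered libraries deviated with r = -0.030, -0.12 and -0.030, so the numbers gave no sign of pairing. miR-301b-5p rested on the fewest tags, 5 to 34 a library.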
